A study of Mus musculus with 7 samples.

Results

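The genes of glutamate and GABA receptors were followed in transplanted mouse gliomas. They were chosen by symbol: every probe with 1 gene symbol that names a subunit of an AMPA, kainate, NMDA or delta receptor, a metabotropic glutamate receptor, or a GABA-A, rho or GABA-B receptor, with 1 probe per gene, the one of highest mean over the 7 arrays. This gave 38 genes, read by 80 probes, of 18193 genes with such a probe, and 29 of the 38 passed the filter on dim probes and were tested among 14453 genes.

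The samples were EGFP-positive cells sorted by flow cytometry from gliomas that overexpress the growth factor PDGF-B together with EGFP, in glioma cells of C57/Bl6 background. The 4 secondary gliomas grew in NOD/SCID mice, an immunodeficient strain, after grafting of cells from early-onset, low-grade primary gliomas. The 3 tertiary gliomas grew in NOD/SCID mice after grafting of cells from a secondary glioma. All 7 samples carry the same transgene and host strain, and no untreated or primary-tumour sample is among them. Ages, and which primary or donor tumour each sample came from, are not given in the labels, so p-values measure the spread between these samples, which may share a donor tumour. Values are log2 expression from RMA, a method that corrects, equalises and summarises Affymetrix arrays, and array medians lay between 5.57 and 5.64.

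Glutamate is the main excitatory transmitter of the brain and GABA the main inhibitory one. AMPA, kainate and NMDA receptors are tetrameric cation channels opened by glutamate, GABA-A receptors are pentameric chloride channels, and the metabotropic glutamate and GABA-B receptors signal through G proteins. Oligodendrocyte precursors, the cells that PDGF stimulates during brain development, receive synaptic input from neurons and carry AMPA and GABA-A receptors.

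The label of the tissue, glioma cells, was set against markers of brain cell types. Oligodendrocyte precursor markers were bright on all 7 arrays, with a mean log2 level of 10.15 to 10.58 over 9 genes in secondary and 10.27 to 10.66 in tertiary gliomas, and 0 of 9 passed limma's test, also at an unadjusted p under 0.05. Neuronal markers averaged 5.88 to 6.52 in secondary and 6.21 to 6.90 in tertiary gliomas, and of 10 tested 0 passed, or 1 at an unadjusted p under 0.05. That was Tubb3, at 6.08 to 7.95 in secondary and 8.47 to 9.18 in tertiary gliomas. Its log2 fold change was 1.81 ± 0.50 (SE, unadjusted p = 0.00722, adjusted p = 0.0763 in limma). Syt1, Rbfox3 and Stmn2 were dim, with means of 4.26, 4.75 and 4.20 over the 7 arrays. Snap25, a protein of synaptic vesicle release, lay between 8.95 and 9.82 in secondary and between 8.78 and 10.16 in tertiary gliomas, while the vesicular glutamate transporters Slc17a7 and Slc17a6, which define excitatory neurons, lay below the filter on dim probes. Microglia and macrophage markers averaged 10.27 to 11.13 in secondary and 5.76 to 6.75 in tertiary gliomas, with 12 of 12 lower in limma's test. Mature oligodendrocyte markers averaged 8.18 to 8.96 against 6.40 to 7.29, with 3 of 6 lower. Astrocyte markers averaged 8.38, 7.76, 7.50 and 7.36 in secondary gliomas 1 to 4 and 7.83, 6.66 and 6.74 in tertiary gliomas 1 to 3, with 0 of 8 called and 2 at an unadjusted p under 0.05. Neural progenitor markers averaged 7.73 to 8.49 in secondary and 7.89 to 8.72 in tertiary gliomas, with 0 of 5 called. Of these, 2 were higher at an unadjusted p under 0.05 in limma. In sorted cells, fewer cells of a type and less RNA per cell cannot be told apart.

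No receptor gene passed the test between the transplant generations. Of 29 tested, 0 passed an adjusted p of 0.05 in limma's test, where 7.38% of all genes did, 6.33% lower and 1.04% higher. At an unadjusted p under 0.05 there were 2, both lower, where 23.8% of all genes passed. The values of the generations did not overlap in 2 of the 29, against 21.9% of all genes. The median log2 fold change, tertiary minus secondary, was -0.34 over the 29 and 0.09 over all genes tested, with 18 of the 29 below 0. The median of the receptor genes was -0.018 without the filter on dim probes, 0.012 without tertiary glioma 2 and -0.0042 without tertiary glioma 3.

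The 3 tertiary gliomas differed among themselves more than the secondary gliomas did in most receptor genes. The SD between tertiary samples exceeded 1 on the log2 scale in 7 of 29 receptor genes, 24.1%, against 3.22% of all genes tested, and it exceeded the SD between secondary samples in 23 of 29, 79.3%, against 51.7% of all genes. The SD between secondary samples exceeded 1 in 0 of 29. The 7 genes were Gria4, Grin3a, Grm3, Grm7, Gabra2, Gabrb2 and Gabrg3. Tertiary glioma 1 was the highest of the tertiary samples in 22 of 29, where it was highest in 39.3% of all genes. Tertiary gliomas 2 and 3 lay below all 4 secondary gliomas in 16 and 14 of the 29, where 24.9% and 23.6% of all genes did so. Tertiary glioma 1 lay below them in 4, against 23.6% of all genes, and above them in 14, against 32.1% of all genes. Tertiary gliomas 2 and 3 lay above them in 3 each, against 36.0% and 35.1% of all genes. A wide tertiary spread was not particular to receptor genes. The tertiary SD also exceeded 1 in 4 of 8 astrocyte, 2 of 6 mature oligodendrocyte and 1 of 10 neuronal markers. It did so in 0 of 9 oligodendrocyte precursor and 0 of 12 microglia and macrophage markers. These shares describe the samples and carry no test.

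**Figure D1:**
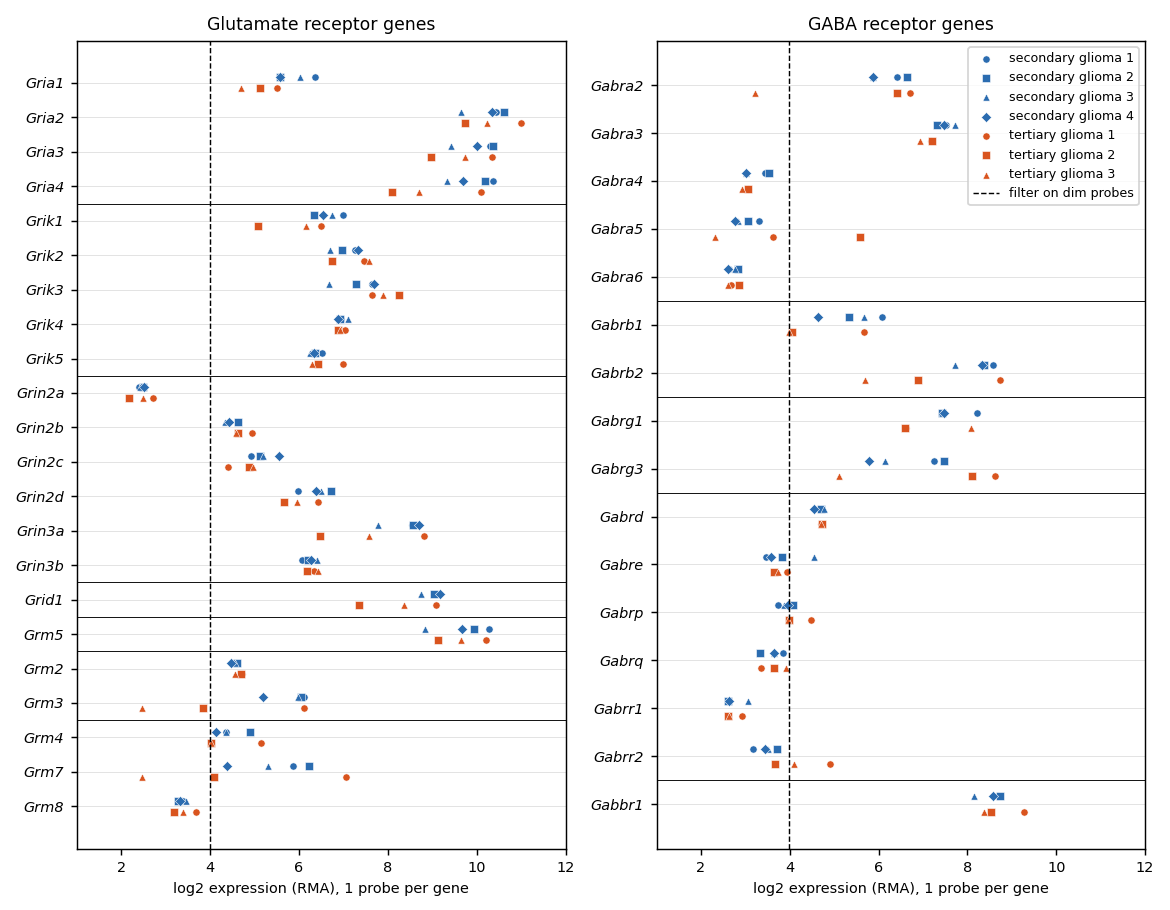
Log2 expression of the 38 receptor genes on each of the 7 arrays, 1 probe per gene, with blue marks for secondary and orange marks for tertiary gliomas, marker shape for the replicate number and horizontal lines between receptor classes. The dashed line is the filter on dim probes at a log2 value of 3.99; brightness cannot be compared between genes. The 9 genes left out of the test have means left of the line, though Gabra5 reaches 5.59 in tertiary glioma 2. The orange marks are spread most widely in Grm3, Grm7, Gabra2, Gabra5, Gabrb2 and Gabrg3.

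The 5′ flanks of 3 genes that lay lower in tertiary gliomas 2 and 3, Gria4, Grm3 and Gabrb2, and of Cacng5, an AMPA receptor regulator that was higher in tertiary gliomas, are shown so that the genes' start regions can be read side by side. The windows run from 250 bases before to 50 after a transcript start, 5′ to 3′, from RefSeq on build GRCm38.p6. The genes were chosen after their values were seen, and of the 38 receptor genes 28 had such a window. Capitals mark a match to 1 of 3 motifs searched on both strands, the E-boxes CAGCTG and CAGATG and the TATA box TATAAA, which do not overlap one another here.
Gria4, chr9:4796185-4796484, minus strand: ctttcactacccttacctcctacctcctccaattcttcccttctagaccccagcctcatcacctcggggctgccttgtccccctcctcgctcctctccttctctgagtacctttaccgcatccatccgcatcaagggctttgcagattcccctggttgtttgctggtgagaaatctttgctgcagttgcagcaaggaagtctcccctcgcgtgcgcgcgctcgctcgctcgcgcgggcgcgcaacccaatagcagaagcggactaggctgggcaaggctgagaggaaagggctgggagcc
Grm3, chr5:9725303-9725602, minus strand: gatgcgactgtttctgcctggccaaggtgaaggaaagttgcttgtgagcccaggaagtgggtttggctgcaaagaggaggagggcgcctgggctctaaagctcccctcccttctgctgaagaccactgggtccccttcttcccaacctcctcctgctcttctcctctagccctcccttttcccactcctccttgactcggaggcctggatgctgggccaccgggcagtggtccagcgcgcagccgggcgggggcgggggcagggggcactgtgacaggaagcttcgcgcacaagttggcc
Gabrb2, chr11:42420190-42420489, plus strand: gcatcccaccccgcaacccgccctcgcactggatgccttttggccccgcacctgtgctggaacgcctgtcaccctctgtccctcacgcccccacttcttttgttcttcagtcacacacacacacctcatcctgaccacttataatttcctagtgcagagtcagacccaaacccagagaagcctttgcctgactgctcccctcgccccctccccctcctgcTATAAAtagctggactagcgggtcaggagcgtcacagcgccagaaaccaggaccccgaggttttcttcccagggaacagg
Cacng5, chr11:107915006-107915305, minus strand: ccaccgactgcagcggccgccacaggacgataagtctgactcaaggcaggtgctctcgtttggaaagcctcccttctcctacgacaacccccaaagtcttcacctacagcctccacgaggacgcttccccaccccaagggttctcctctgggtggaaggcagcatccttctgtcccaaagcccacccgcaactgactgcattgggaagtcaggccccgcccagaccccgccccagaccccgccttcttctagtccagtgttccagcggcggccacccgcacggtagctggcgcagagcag

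The Gria4 window had a GC content of 59.7% and 17 CG dinucleotides, and the Cacng5 window 63.3% and 17. Grm3 had 63.7% and 11, and Gabrb2 59.0% and 11. Over all 32851 windows the medians were 52.7% and 7. The Gabrb2 window held 1 TATAAA, which 13.6% of all windows hold. None of the 4 windows held CAGCTG or CAGATG, which 16.3% and 17.2% of all windows hold. Gabrb2 has 3 starts in the table and Cacng5 has 2, and the one listed before the others is shown. The matches are a description of letters in these windows.

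AMPA receptors carry most fast excitation, and all 4 of their subunit genes were tested, with 0 called. Gria2, the subunit that makes edited AMPA receptors impermeable to calcium, had log2 levels of 10.44, 10.61, 9.65 and 10.34 in secondary gliomas 1 to 4 and of 11.00, 9.73 and 10.23 in tertiary gliomas 1 to 3. The groups overlapped, with secondary glioma 3 lowest and tertiary glioma 1 highest of all 7. Its log2 fold change was 0.06 ± 0.34 (SE, n = 4 and 3), with a 95% interval from -0.72 to 0.84 and an adjusted p of 0.935 in limma. The interval does not exclude a change of either sign. The estimate was -0.28 without tertiary glioma 1 and -0.14 without secondary glioma 3.

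Gria4, whose subunit forms fast AMPA channels, read 10.37, 10.20, 9.34 and 9.69 in secondary gliomas and 10.09, 8.10 and 8.70 in tertiary gliomas. Tertiary gliomas 2 and 3 lay below every secondary sample, while tertiary glioma 1 lay inside their range. The log2 fold change was -0.93 ± 0.47 (SE; adjusted p = 0.268 in limma). Without tertiary glioma 1 it was -1.50 with an adjusted p of 0.0328, and with array weights, which gave less weight to deviating arrays, it was -1.26 with an adjusted p of 0.0489. Over its 17 alternatives the adjusted p ran from 0.0328 to 0.612.

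Gria3, another core AMPA subunit, had levels of 10.30, 10.37, 9.42 and 10.01 in secondary and 10.34, 8.97 and 9.73 in tertiary gliomas (log2 fold change -0.34 ± 0.35 SE, adjusted p = 0.592 in limma). Only tertiary glioma 2 fell outside the secondary range. Gria1, the subunit best known from activity-dependent trafficking at synapses, was the AMPA gene whose groups did not overlap. It read 6.35, 5.57, 6.03 and 5.57 in secondary gliomas and 5.50, 5.12 and 4.69 in tertiary gliomas. Its log2 fold change was -0.78 ± 0.26 (SE, 95% interval -1.39 to -0.17), with an unadjusted p of 0.0189 and an adjusted p of 0.130 in limma, and the adjusted p ran from 0.0623 to 0.331 over its alternatives. The gap between tertiary glioma 1 and the lowest secondary samples was narrow. The other Gria1 probe above the filter gave a difference of -1.34 with overlapping groups (adjusted p = 0.212 in limma with every probe tested on its own).

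Kainate receptor subunits split by gene. Grik3, a low-affinity kainate subunit, had levels of 7.65, 7.27, 6.67 and 7.69 in secondary gliomas and 7.65, 8.24 and 7.90 in tertiary gliomas. Its log2 fold change was 0.61 ± 0.28 (SE; adjusted p = 0.227 in limma), and its other probe gave a difference of 0.75 (unadjusted p = 0.0104, adjusted p = 0.105 with every probe tested on its own). Grik1, also a low-affinity subunit, read 6.997, 6.33, 6.75 and 6.53 against 6.50, 5.08 and 6.16. Tertiary glioma 2 was its lowest sample, and its log2 fold change was -0.74 ± 0.34 (SE; adjusted p = 0.229). Grik2, the subunit of the main brain kainate receptor, was at 0.20 ± 0.25 (log2 fold change ± SE), with tertiary levels of 7.46, 6.74 and 7.57. The high-affinity subunits Grik4 and Grik5, which need a partner subunit to form channels, were at -0.02 ± 0.12 and 0.21 ± 0.19.

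Among NMDA receptor subunits, Grin3a stood apart. It encodes a subunit that lowers the calcium permeability of NMDA receptors. Its levels were 8.54, 8.57, 7.77 and 8.70 in secondary gliomas and 8.81, 6.48 and 7.57 in tertiary gliomas. Tertiary glioma 1 was its highest and tertiary glioma 2 its lowest sample, and the log2 fold change was -0.78 ± 0.51 (SE; adjusted p = 0.389 in limma). Its 3 probes all placed tertiary glioma 2 lowest, at 1.92 to 2.25 below the secondary mean.

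The GluN2 subunits bind glutamate and set the kinetics of NMDA receptors. Grin2c read 4.93, 5.12, 5.18 and 5.54 in secondary gliomas and 4.41, 4.87 and 4.96 in tertiary gliomas, with tertiary glioma 1 lowest (log2 fold change -0.45 ± 0.20 SE, adjusted p = 0.220 in limma). Grin2d was at -0.38 ± 0.23, Grin2b at 0.22 ± 0.15 and the glycine-binding Grin3b at 0.08 ± 0.14 (log2 fold changes ± SE). Grin2a, the subunit that dominates in the adult forebrain, had levels of 2.18 to 2.72 on the 7 arrays, all below the filter.

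Grid1, a delta receptor subunit that links synapses through cerebellins, had levels of 9.15, 9.04, 8.74 and 9.18 in secondary and 9.07, 7.35 and 8.36 in tertiary gliomas. Tertiary gliomas 2 and 3 lay below the secondary range, and the log2 fold change was -0.77 ± 0.37 (SE; adjusted p = 0.247 in limma). Without tertiary glioma 1 it was -1.17 with an adjusted p of 0.0454. Its dimmer probe above the filter gave a difference of 0.10, so the probes differed in sign.

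**Figure D2:**
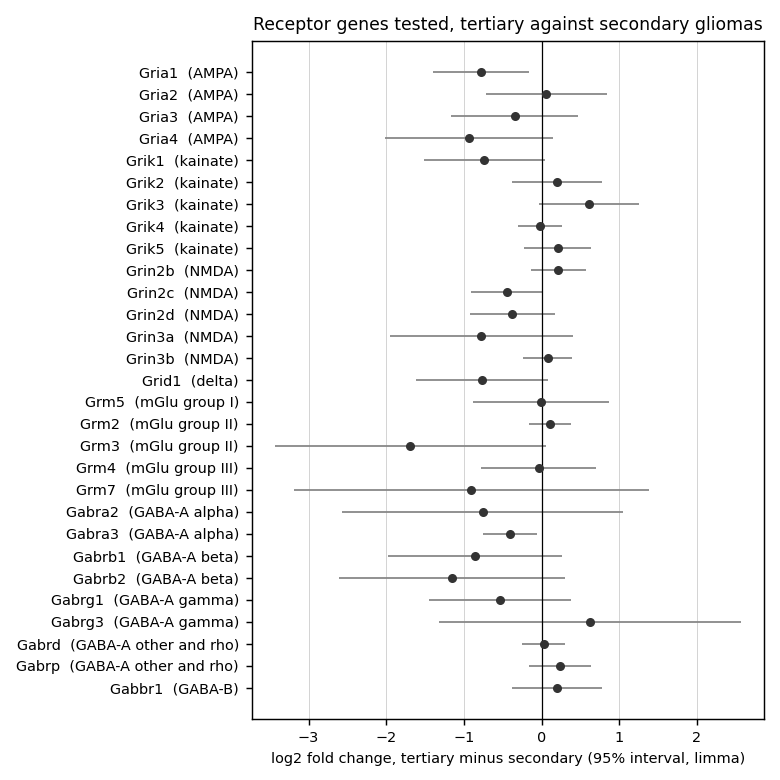
Log2 fold change, tertiary minus secondary, of the 29 receptor genes tested (points), with limma's 95% interval (bars), n = 4 and 3. The intervals of Gria1 and Gabra3 lie left of 0 before adjustment for multiple tests, and those of Grm3, Grm7, Gabra2, Gabrb2 and Gabrg3 are the widest.

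Among metabotropic glutamate receptor genes, Grm7 and Grm3 had wide tertiary ranges, 4.60 and 3.65 from lowest to highest level. The ranges of Grm5, Grm4 and Grm2 were 1.09, 1.15 and 0.16. Those of the GABA-A genes Gabrg3, Gabra2 and Gabrb2 were 3.51, 3.50 and 3.04. Grm5, the group I receptor that couples to phospholipase C, read 10.27, 9.93, 8.83 and 9.66 in secondary gliomas and 10.21, 9.12 and 9.65 in tertiary gliomas. All tertiary values fell within the secondary range, and the log2 fold change was -0.01 ± 0.38 (SE, 95% interval -0.88 to 0.86, adjusted p = 0.993 in limma). The sign of this estimate changed in 5 alternatives, among them median centring of the arrays (0.03).

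Grm3, a group II receptor that lowers cyclic AMP and is prominent in glia, read 6.11, 6.05, 5.99 and 5.18 in secondary gliomas and 6.12, 3.84 and 2.47 in tertiary gliomas. Tertiary glioma 1 lay beside the highest secondary sample, whereas tertiary gliomas 2 and 3 lay below the filter. Its log2 fold change of -1.69 ± 0.75 (SE; adjusted p = 0.221 in limma) was the most negative of the 29 receptor genes. It was -2.68 with an adjusted p of 0.0115 without tertiary glioma 1, -2.35 with an adjusted p of 0.0406 with array weights, and -0.85 without tertiary glioma 3. The adjusted p ran from 0.0115 to 0.505 over its alternatives. Astrocyte markers also averaged lower in tertiary gliomas 2 and 3 than in tertiary glioma 1, at 6.66 and 6.74 against 7.83. Tertiary glioma 1 was the highest of the tertiary samples in 6 of the 8 astrocyte markers. The exceptions were Gfap, an intermediate filament of astrocytes, at 5.57, 6.52 and 5.97 in tertiary gliomas 1 to 3, and Aldh1l1, a folate enzyme of astrocytes, at 3.96, 4.02 and 3.35. The part of astrocytes in the Grm3 values was not tested.

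Grm7, a presynaptic group III receptor, had the largest tertiary range of the 29, with levels of 7.07, 4.09 and 2.46 against 5.86, 6.22, 5.30 and 4.38 in secondary gliomas. Tertiary glioma 1 lay above and tertiary gliomas 2 and 3 below all secondary samples. Its log2 fold change was -0.90 ± 0.99 (SE; adjusted p = 0.616 in limma) and 0.13 without tertiary glioma 3. The group III receptor Grm4 was at -0.04 ± 0.32 and the group II receptor Grm2 at 0.11 ± 0.12 (log2 fold changes ± SE), with means of 4.39 and 4.66 in tertiary gliomas. Grm8 lay below the filter on all 7 arrays, from 3.19 to 3.67.

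GABA-A receptor alpha subunits help form the GABA site and, with a gamma subunit, the benzodiazepine site. Gabra3 was the only one of the 29 besides Gria1 whose groups did not overlap. It read 7.51, 7.31, 7.73 and 7.47 in secondary gliomas and 7.17, 7.21 and 6.92 in tertiary gliomas, a log2 fold change of -0.40 ± 0.15 (SE, 95% interval -0.75 to -0.06, unadjusted p = 0.0279, adjusted p = 0.159 in limma). Its adjusted p ran from 0.0948 to 0.377 over the alternatives, and its other probe gave a difference of -0.02 with overlapping groups.

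Gabra2 read 6.41, 6.64, 5.88 and 5.87 in secondary gliomas and 6.71, 6.41 and 3.21 in tertiary gliomas. Tertiary glioma 3 alone was low, and all 3 probes above the filter placed it lowest, at 1.67 to 2.99 below the secondary mean. The log2 fold change was -0.76 ± 0.78 (SE; adjusted p = 0.594 in limma) and 0.36 without tertiary glioma 3. Gabra4, Gabra5 and Gabra6 were below the filter by their means. Gabra5, an extrasynaptic subunit, still reached 5.59 in tertiary glioma 2, where its other values ran from 2.31 to 3.63.

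The beta subunits are part of every common GABA-A receptor. Gabrb2 read 8.57, 8.36, 7.73 and 8.33 in secondary gliomas and 8.72, 6.89 and 5.69 in tertiary gliomas. Tertiary gliomas 2 and 3 lay below every secondary sample and tertiary glioma 1 above every one. The log2 fold change was -1.15 ± 0.63 (SE; adjusted p = 0.307 in limma). It was -1.96 without tertiary glioma 1 (adjusted p = 0.0206), -1.88 with array weights (adjusted p = 0.0390) and -0.44 without tertiary glioma 3. The adjusted p ran from 0.0206 to 0.686 over its alternatives. All 5 probes of Gabrb2 placed tertiary glioma 3 lowest, at 1.99 to 2.62 below the secondary mean. The identifier of the brightest marks a probe set that may cross-hybridise with similar transcripts, and the other 4 do not carry that mark.

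Gabrb1 read 6.08, 5.33, 5.67 and 4.63 in secondary gliomas and 5.67, 4.06 and 3.99 in tertiary gliomas. Secondary glioma 4 and tertiary gliomas 2 and 3 were its low samples. The log2 fold change was -0.86 ± 0.48 (SE, adjusted p = 0.320 in limma). Without secondary glioma 4 another Gabrb1 probe was the brightest, and it gave -1.54 with an adjusted p of 0.0356. With the replicate number as a block, secondary glioma 4 carried no weight in the group difference. In that fit the probe listed here gave -1.12 (adjusted p = 0.125 in limma). Over the alternatives of Gabrb1 the adjusted p ran from 0.0356 to 0.624.

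The gamma subunits, which anchor GABA-A receptors at synapses, differed from the beta subunits in which sample was low. Gabrg1 read 8.21, 7.43, 7.43 and 7.48 in secondary gliomas and 6.61, 6.60 and 8.09 in tertiary gliomas, so that here tertiary gliomas 1 and 2 were low and tertiary glioma 3 lay inside the secondary range. Its log2 fold change was -0.54 ± 0.39 (SE; adjusted p = 0.444 in limma). Gabrg3 read 7.25, 7.48, 6.14 and 5.79 in secondary gliomas and 8.63, 8.11 and 5.12 in tertiary gliomas. Tertiary gliomas 1 and 2 lay above and tertiary glioma 3 below every secondary sample. All 4 probes of Gabrg3 above the filter placed tertiary glioma 3 lowest of the tertiary samples. The log2 fold change of Gabrg3 was 0.62 ± 0.84 (SE; adjusted p = 0.694).

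The remaining GABA-A subunits lay near or below the filter. Gabrd, of extrasynaptic receptors, was at 0.03 ± 0.12 and Gabrp at 0.24 ± 0.17 (log2 fold changes ± SE), with tertiary means of 4.71 and 4.14. Gabre, Gabrq and the retinal rho subunits Gabrr1 and Gabrr2 were below the filter by their means. Of these Gabrr2 reached 4.90 in tertiary glioma 1 and 4.10 in tertiary glioma 3, and Gabre 4.54 in secondary glioma 3. The GABA-B receptor gene Gabbr1 has a product that binds GABA. Its levels were 8.68, 8.72, 8.16 and 8.58 in secondary and 9.28, 8.54 and 8.36 in tertiary gliomas. Its groups overlapped, with tertiary glioma 1 highest, and its log2 fold change was 0.19 ± 0.25 (SE; adjusted p = 0.681 in limma).

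**Figure D3:**
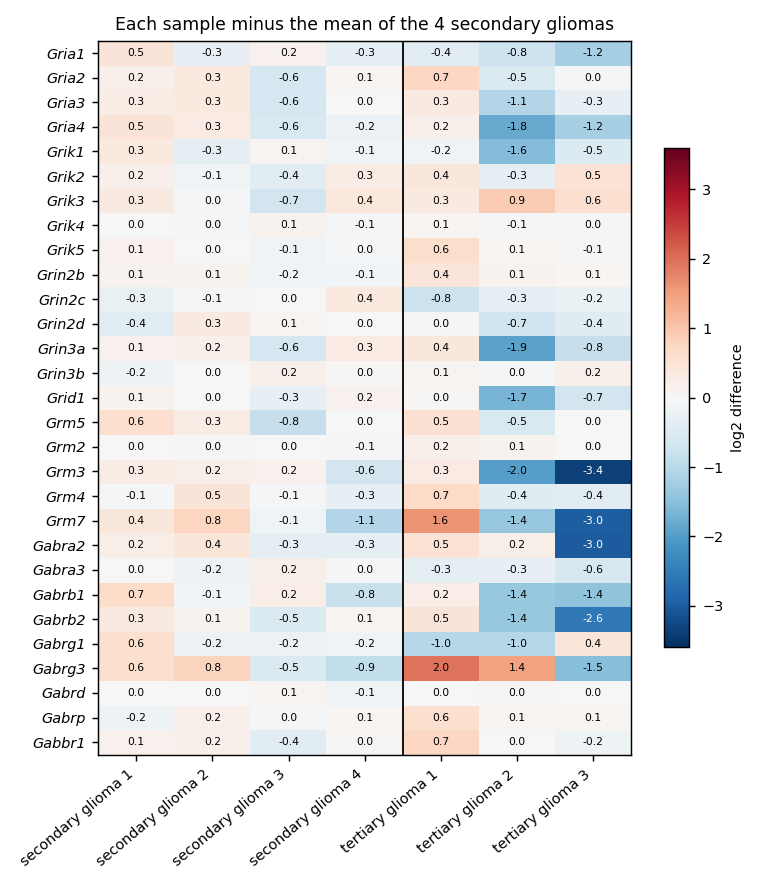
Each sample minus the mean of the 4 secondary gliomas, in log2 units, for the 29 receptor genes tested, with blue for lower, red for higher and the difference printed in each cell. Tertiary glioma 2 is lower by at least 1 in 10 genes, tertiary glioma 3 in 8 and tertiary glioma 1 in 1.

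Counted by sample, 13 of the 29 receptor genes lay at least 1 log2 unit below the secondary mean in tertiary glioma 2 or 3. In tertiary glioma 2 there were 10, where 8.35% of all genes were that low, and in tertiary glioma 3 there were 8, where 7.92% were. Both samples shared 5 of them: Gria4, Grm3, Grm7, Gabrb1 and Gabrb2. Gria3, Grik1, Grin3a, Grid1 and Gabrg1 were that low in tertiary glioma 2 and not in 3, and Gria1, Gabra2 and Gabrg3 in tertiary glioma 3 and not in 2. In tertiary glioma 1 the gene was Gabrg1, where 7.12% of all genes were that low. Without tertiary glioma 1, limma called 4 of 28 receptor genes, Gria4, Grid1, Grm3 and Gabrb2, all lower, where 12.8% of all genes were called. With array weights it called Gria4, Grm3 and Gabrb2, where 13.4% of all genes were called. Beside these genes, oligodendrocyte precursor markers averaged 10.66, 10.27 and 10.52 in tertiary gliomas 1 to 3, astrocyte markers 7.83, 6.66 and 6.74, and mature oligodendrocyte markers 7.29, 6.69 and 6.40. Tertiary glioma 1 was the highest of the 3 in 6 of 9, 6 of 8 and 3 of 6 of these markers. Neural progenitor markers ran the other way, averaging 7.89, 8.67 and 8.72, with tertiary glioma 1 highest in 0 of 5. Microglia and macrophage markers averaged 6.53, 6.75 and 5.76 (highest in 3 of 12), and neuronal markers 6.76, 6.90 and 6.21 (5 of 10). Endothelium and mural cell markers averaged 4.56, 4.58 and 4.58 (4 of 6). The part of those cells in the receptor values was not tested.

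Several probes of the same gene gave a reading within each array. Of 18 tested receptor genes with more than 1 probe above the filter, 15 had all probes with the same sign of difference, and 15 had all probes placing the same tertiary sample lowest. Probes of a gene share the RNA of an array and are not replicates.

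**Figure D4:**
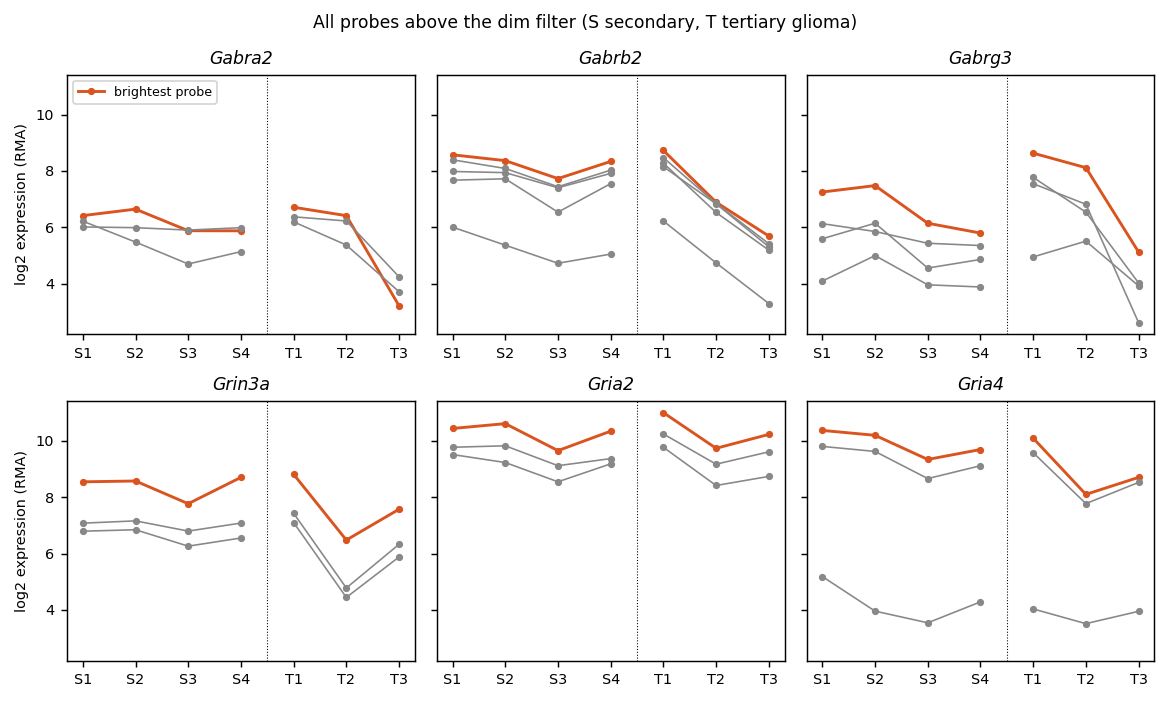
Log2 expression of every probe above the filter for 6 receptor genes, with secondary gliomas 1 to 4 left and tertiary gliomas 1 to 3 right of the dotted line, and orange for the brightest probe. Lines join the values of 1 probe and imply no order of samples. Tertiary glioma 3 is the lowest tertiary sample in all probes of Gabra2, Gabrb2 and Gabrg3, and tertiary glioma 2 in those of Grin3a, Gria2 and Gria4. Some of these lowest values lie inside the secondary range, as in Gria2.

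Genes that work with the receptors were read from a list of 43 accessory genes, of which 37 were tested. Of these 2 were called higher and 0 lower, where 1.04% of all genes were called higher and 6.33% lower, and the median log2 fold change was 0.13. The groups did not overlap in 1 gene that was lower and 4 that were higher, against 11.2% and 10.8% of all genes. The tertiary SD exceeded 1 in 1 of 37, against 3.22% of all genes. That was the scaffold gene Dlg2 (named after its values were seen), which read 8.20, 6.31 and 4.14 in tertiary gliomas and 6.66 to 7.12 in secondary gliomas. Cacng5, a transmembrane AMPA receptor regulatory protein, had levels of 7.13, 6.76, 5.45 and 6.18 in secondary gliomas and 7.69, 8.46 and 9.32 in tertiary gliomas. The groups did not overlap, and it rose by 2.11 ± 0.48 on the log2 scale (SE; adjusted p = 0.0399 in limma). Over its alternatives the log2 fold change stayed between 1.70 and 2.51. Among the alternatives, the call was lost without any of secondary gliomas 2, 3 and 4 or tertiary gliomas 2 and 3 (adjusted p = 0.0730, 0.0788, 0.0989, 0.124 and 0.127) and without the filter on dim probes (0.0558).

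The related regulators did not pass. Cacng7 read 8.04, 7.98, 7.03 and 8.19 against 8.69, 8.22 and 8.74 (log2 fold change 0.74 ± 0.29 SE, adjusted p = 0.182 in limma), and its groups did not overlap. Cacng2 was at 0.18 ± 0.13, Cacng4 at 0.13 ± 0.21 and Cacng8 at 0.15 ± 0.42, and Cacng3 lay below the filter. In Cacng4 and Cacng8 the sign turned without secondary glioma 3.

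Pick1, a scaffold that binds AMPA receptor tails and promotes their internalisation, rose from 6.70, 7.02, 6.82 and 7.03 to 7.38, 7.64 and 7.49. The groups did not overlap, at a log2 fold change of 0.61 ± 0.14 (SE; adjusted p = 0.0413 in limma). The call was lost, among other alternatives, when any 1 sample other than tertiary glioma 1 was left out, with adjusted p from 0.0718 to 0.150, with all probes averaged (0.107) and with trended and robust variances (0.0588). With every probe tested on its own, the accessory genes called were Cacng5 and Shisa9, and Pick1 was not among them. Gabarap, named after the GABA-A receptor and also part of autophagy, read 10.55, 10.67, 10.85 and 10.50 against 10.33, 10.08 and 9.94. Its groups did not overlap, and its log2 fold change of -0.52 ± 0.15 (SE) had an adjusted p of 0.0869.

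Genes for making, moving and clearing the transmitters formed a list of 27, of which 19 were tested and 1 was called, lower, where 6.33% of all genes were called lower. Glul, the enzyme that turns glutamate into glutamine, fell from 11.16, 11.03, 11.44 and 11.05 to 10.10, 10.01 and 9.80. It dropped by 1.20 ± 0.15 on the log2 scale (SE; adjusted p = 0.00238 in limma) and was called in 17 of 17 alternatives. Microglia and macrophage markers in the same samples went from a mean of 10.65 ± 0.35 (SD, n = 4) to 6.35 ± 0.52 (SD, n = 3), and mature oligodendrocyte markers from 8.58 ± 0.32 to 6.79 ± 0.45. The part of those cells in the Glul values was not tested.

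Slc7a11, the cystine and glutamate exchanger that releases glutamate, read 5.06, 6.63, 4.60 and 5.80 in secondary gliomas and 8.11, 6.92 and 6.66 in tertiary gliomas. The groups did not overlap, but the log2 fold change of 1.71 ± 0.53 (SE) had an adjusted p of 0.105 in limma. The glutamate transporter Slc1a2 read 11.47, 11.35, 10.56 and 11.08 in secondary gliomas and 11.57, 9.61 and 10.14 in tertiary gliomas (log2 fold change -0.68 ± 0.45 SE, adjusted p = 0.397). Without tertiary glioma 1 its log2 fold change was -1.25 with an adjusted p of 0.0393, and the adjusted p ran from 0.0393 to 0.797 over its alternatives. The transporter Slc1a3 was at 0.0049 ± 0.27 (log2 fold change ± SE) and Gad1, which makes GABA from glutamate, at 0.42 ± 0.38, while Gad2 and the vesicular glutamate transporters lay below the filter.

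**Figure D5:**
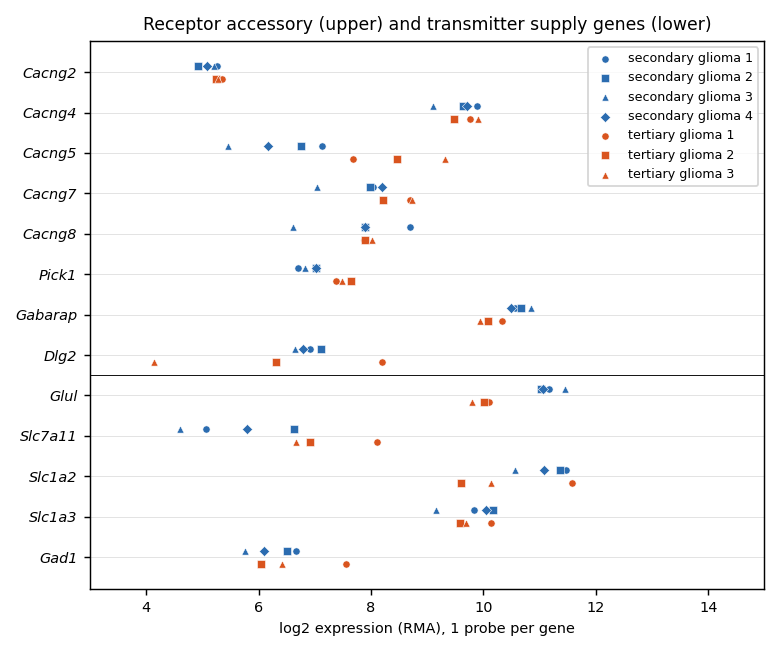
Log2 expression on each of the 7 arrays for accessory genes of the receptors (upper block) and genes of transmitter supply (lower block), with blue for secondary and orange for tertiary gliomas and marker shape for the replicate number. Among the genes plotted, orange and blue marks do not overlap in Cacng5, Cacng7, Pick1, Gabarap, Glul and Slc7a11, and the tertiary marks are spread from 4.14 to 8.20 in Dlg2.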

How the data were processed

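Sorted EGFP-positive cells of 4 secondary and 3 tertiary gliomas were profiled on 1 array each. Per the labels' protocols, 30 ng of total RNA was amplified and labelled with biotin. The deposited log2 values, 1 for each probe on each array, come from RMA per the submitters' processing notes. No version of RMA is named there, and the base of the logarithm was inferred from the range of the values. RMA makes the arrays alike in distribution and compresses dim probes. Scanner files, detection calls and scan dates were not used here, so no batch was tested, and precision is limited by the small number of arrays.

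Of 45101 probes, 34945 had 1 gene symbol in the platform annotation, 932 had several, 9160 had none listed and 64 were controls. A gene was its brightest single-symbol probe by mean over the 7 arrays. When a sample was left out, the brightest probe was chosen again over the arrays kept. Genes whose mean fell under the 25th percentile of probe means (3.99 in log2 units) were not tested. Tertiary gliomas were compared with secondary gliomas by limma 3.58.1 in R 4.3.3 (lmFit and eBayes), p-values were adjusted over all 14453 genes by Benjamini-Hochberg, and a gene was called when its adjusted p was under 0.05. Standard errors are limma's. The alternatives were other filters, probe choices and normalizations, array weights, other variance settings, the replicate number as a block, an adjusted p under 0.10 and leaving out each sample. Any pair of arrays shared at most 5.39% identical values. Samples with the same number did not deviate together (r = 0.036, -0.14 and 0.015 for numbers 1 to 3). Tables and figures were made with pandas 2.3.3 and matplotlib 3.10.9 in Python 3.11.15. The receptor genes and the gene lists were chosen with earlier results of these data known. Every tested receptor gene is named. Of the accessory and supply lists, called genes and all Cacng AMPA regulators are named. Gabarap, Dlg2, Shisa9, Slc7a11, Slc1a2, Slc1a3 and Gad1 were added after their values were seen. So were the markers Snap25, Tubb3, Syt1, Rbfox3, Stmn2, Gfap and Aldh1l1.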

Additional observations from a re-analysis of the deposited data

Results flagged for a closer look

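Among the 4 secondary gliomas, 3 of 29 receptor genes had 1 sample far from the other three by Dixon's criterion. Gabrg1 was at 8.21 in secondary glioma 1, where the others lay between 7.43 and 7.48. Grin3a was at 7.77 in secondary glioma 3, below values of 8.54 to 8.70. Grm3 was at 5.18 in secondary glioma 4, below values of 5.99 to 6.11. Chance flags about 1 in 20 groups, and 9.56% of all genes tested met the criterion. Groups of 3 were not examined this way, so the low tertiary values carry no such flag.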

How the results depend on the processing

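The count of receptor genes called, 0, stayed 0 in 10 of 11 alternatives that kept all samples and was 3 with array weights. It ran from 0 to 4 when 1 sample was left out, with 1 without secondary glioma 4 and 4 without tertiary glioma 1. The gene called without secondary glioma 4 was Gabrb1, read there by a probe other than in the main fit. Over all genes the count of 1066 became 1933 with array weights, 1622 at an adjusted p under 0.10 and 636 with the replicate number as a block, and ran from 651 to 1852 when 1 sample was left out. The replicate block called 0 receptor genes and 0 accessory genes (adjusted p = 0.180 for Cacng5 and 0.114 for Pick1), and the labels give no shared litter, batch or day for a number. No tertiary sample has the number 4, so secondary glioma 4 carried no weight in the group difference of that fit. The 2 accessory genes called became 1 without the dim filter, 1 with all probes averaged and 1 with trended and robust variances, and 0 to 3 when 1 sample was left out. With every probe on its own the count stayed 2, with Shisa9 in place of Pick1. Cacng5 was called in 10 of 17 alternatives and Pick1 in 8. The 1 supply gene called became 1 to 2 when 1 sample was left out. Of the single-gene log2 fold changes, 27 turned sign across 12 genes, none of them past the threshold. With median centring Grik4 was at 0.025, Grm4 at 0.0014 and Grm5 at 0.032. With array weights Gabbr1 was at -0.076, Gabrg3 at -0.16, Gria2 at -0.23 and Grik4 at 0.00031. Averaging probes put Grm5 at 0.11, and the replicate block put Gabrd at -0.018. When 1 sample was left out, the log2 fold change ran from -0.29 to 0.26 in Grm5, from -0.42 to 0.15 in Grm4, from -0.28 to 0.35 in Gria2, from -0.67 to 0.012 in Gria3 and from -0.058 to 0.030 in Grik4. It ran from -0.028 to 0.25 in Cacng4, from -0.23 to 0.46 in Cacng8, from -0.018 to 0.056 in Gabrd and from -0.083 to 0.37 in Gabbr1. The ranges were -0.049 to 1.71 in Gabrg3, -1.39 to 0.36 in Gabra2 and -2.17 to 0.13 in Grm7. The cause of these changes was not tested, beyond the samples each fit lacks. With 3 tertiary samples that differ from each other, the intervals of the wide receptor genes do not exclude changes of either sign, and without detection calls values below the filter have no firm order.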
